A study of Mus musculus with 282 samples.

Results

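Glo1 and Btbd9 are neighbours on chromosome 17 of the mouse, and their RNA levels were followed here through the hypothalamus of a large panel of strains. The members were chosen by name: every gene and transcript whose gene name in the deposited assembly is Glo1 or Btbd9. This gave 2 of 14079 genes and 6 of 51024 transcripts, 3 of each gene, together with 4 of 32537 start sites and 2 of 18687 coding sequences. The series holds RNA-seq of the whole hypothalamus from 282 male mice of the Hybrid Mouse Diversity Panel, a collection of classical inbred strains and recombinant inbred sets. All mice ate a diet high in fat and sugar, so no chow control is part of the series. The age of the mice is not given in the sources used here. A group is a strain: 25 classical inbred strains and 43 BXD, 18 AXB/BXA, 6 BXH and 7 CXB recombinant strains, 99 in all. A recombinant inbred strain is a homozygous mosaic of a pair of parental strains. C57BL/6J is a parent of 3 of the sets, and the other parent is DBA/2J for BXD, A/J for AXB/BXA and C3H/HeJ for BXH. CXB was bred from other substrains of BALB/c and C57BL/6.

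Glo1 encodes glyoxalase 1, which with glutathione converts methylglyoxal, a reactive by-product of glycolysis, into S-lactoylglutathione. The enzyme made by Hagh then releases D-lactate. Btbd9 encodes a BTB domain protein studied as an adaptor of the Cul3 ubiquitin ligase, and variants near the human gene are associated with restless legs syndrome. A genomic duplication that contains Glo1 and part of Btbd9 is known in some inbred strains of mice, and mouse Glo1 has been studied for anxiety-like behaviour. Copy number and genotype were not measured in the files used here, so the levels below are RNA levels only, and a difference in copy number and any other difference that follows the strain cannot be told apart.

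Expression was given as FPKM, sequenced fragments scaled by transcript length and by library size, which allows levels of genes of different length to be compared. Depth per mouse cannot be read from FPKM, so the error printed is the SD between mice of a strain. Differences were fitted on log2(FPKM + 1) with limma over all genes or all transcripts, and a call means a Benjamini-Hochberg adjusted p below 0.05. Nothing in the labels says more than that replicates are separate mice, and p-values measure the spread between mice of a strain. In whole tissue, fewer cells of a type and less RNA per cell cannot be told apart. The fraction of variance that lies between strains is called the strain share.

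Some libraries stood apart by measures other than the levels of the 2 genes. Mice OB-273 and OB-274 of CXB-6/ByJ had the same ratio of 0.995 within 0.1% at all 107888 features compared, so they differed only by a scale factor, and their mean was counted as 1 mouse. This left 280 libraries with a strain: 84 strains had 3, 13 had 2 and 2 had 1. Mouse OB-627 carries labels of 2 strains and entered no comparison. Each mouse was also compared with its strain over the 500 genes outside chromosome 17 with the highest strain share. There the median correlation with the other mice of its strain was 0.940. The genes were chosen with the same mice and labels, which favours a high value. Mouse OB-678, labelled CXB-7/ByJ, had a correlation of -0.0054 with its own strain and 0.953 with BXA-12/PgnJ. Mice OB-585, labelled PL/J, and OB-831, labelled BXD56, were also nearer to another strain than to their own. The same held narrowly for OB-285 of AXB-19/PgnJ, with 0.939 to its own strain and 0.944 to the closely alike AXB-20/PgnJ. It was not set apart. In mouse OB-547, labelled BXD-12/TyJ, gene FPKM added up to 792801, while the median mouse had 337533. Mice OB-678, OB-585, OB-831 and OB-547 kept their labels, and results that rest on these 4 mice are given with and without them. Removal of all 4 was added after the data were seen.

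The gene Glo1 (XLOC_015961) lies on the minus strand of mm10 at chr17:30590263-30612761, and Btbd9 (XLOC_015960) on the same strand at chr17:30215524-30582620. Glo1 is upstream of Btbd9, and 7642 bases lie between them. The main Glo1 transcript TCONS_00152351 has 6 exons. TCONS_00152349 and TCONS_00152350 run 2603 bases further at the 3′ end. The main Btbd9 transcript TCONS_00152347 has 11 exons, and TCONS_00152346 differs from it by a gap within the last exon. TCONS_00152348, an unannotated isoform called the short form here, shares 5 internal exons with the main transcript. It begins with an exon of 6475 bases that extends 6333 bases upstream of the main form, and it lacks the 5 downstream exons, ending instead in an exon of 20 bases.

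The point where the short and full Btbd9 forms part is given here as mm10 reads it on the minus strand, since the short form follows Glo1 most closely among the Btbd9 transcripts. The first line is the last exon that both forms hold, chr17:30513556-30513675, with its final 10 bases in capitals. The second line is the next exon of the full forms, chr17:30334223-30334332, which the short form skips, with its first 10 bases in capitals.
Btbd9 last shared exon: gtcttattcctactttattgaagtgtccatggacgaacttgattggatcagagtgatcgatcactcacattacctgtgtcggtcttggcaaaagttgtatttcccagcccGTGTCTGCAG
Btbd9 next exon of the full forms: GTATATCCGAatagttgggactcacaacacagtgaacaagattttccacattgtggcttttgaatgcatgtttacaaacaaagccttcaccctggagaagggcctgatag

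The Glo1 promoter is shown because 3 assembled transcripts start within it. It is the window of RefSeq on GRCm38.p6 from 250 bases before to 50 bases after the annotated start, chr17:30612610-30612909 on the minus strand. Capitals mark the first 10 bases of TCONS_00152350, TCONS_00152349 and TCONS_00152351, of which the first starts at position 149 and the next at position 226 counted from the 5′ end of the window, and TCONS_00152351 starts at the annotated start itself.
Glo1 promoter: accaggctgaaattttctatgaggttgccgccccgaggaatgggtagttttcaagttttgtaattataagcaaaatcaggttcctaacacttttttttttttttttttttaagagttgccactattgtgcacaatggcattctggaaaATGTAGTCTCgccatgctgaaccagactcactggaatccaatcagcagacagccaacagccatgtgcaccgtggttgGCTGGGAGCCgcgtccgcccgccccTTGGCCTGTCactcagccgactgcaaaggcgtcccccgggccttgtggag
Both strands of this window were searched for 3 motifs, and matches of different motifs did not overlap. CCAAT occurred 1 time, at position 186, and 37.4% of 32851 RefSeq promoter windows of the same length hold it. GGGCGG occurred 3 times, all on the opposite strand and 2 of the matches sharing bases with each other, and 35.7% of windows hold it. TGACNNNGC, the core of the antioxidant response element, was not found, and 12.4% of windows hold it. Btbd9 has no window in the table used.

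Glo1 was one of the genes that differed most between strains. Over the 280 mice its level ran from 24.2 FPKM in a mouse of KK/HlJ to 166.4 FPKM in a mouse of BXA-12/PgnJ. Strain means ran from 25.6 FPKM in KK/HlJ to 148.1 FPKM in BXA-12/PgnJ, a ratio of 5.78, around a median of 35.7 FPKM. The strain share of Glo1 was 92.1%, where the median gene had 22.1% and 0.767% of the 14079 genes had a higher share. The difference among the 99 strains had an adjusted p of 8.07e-80, and 74.9% of all genes were called in that comparison, so the call itself does not single Glo1 out. Without the 4 mice that stand apart the share was 97.5%.

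**Figure D1:**
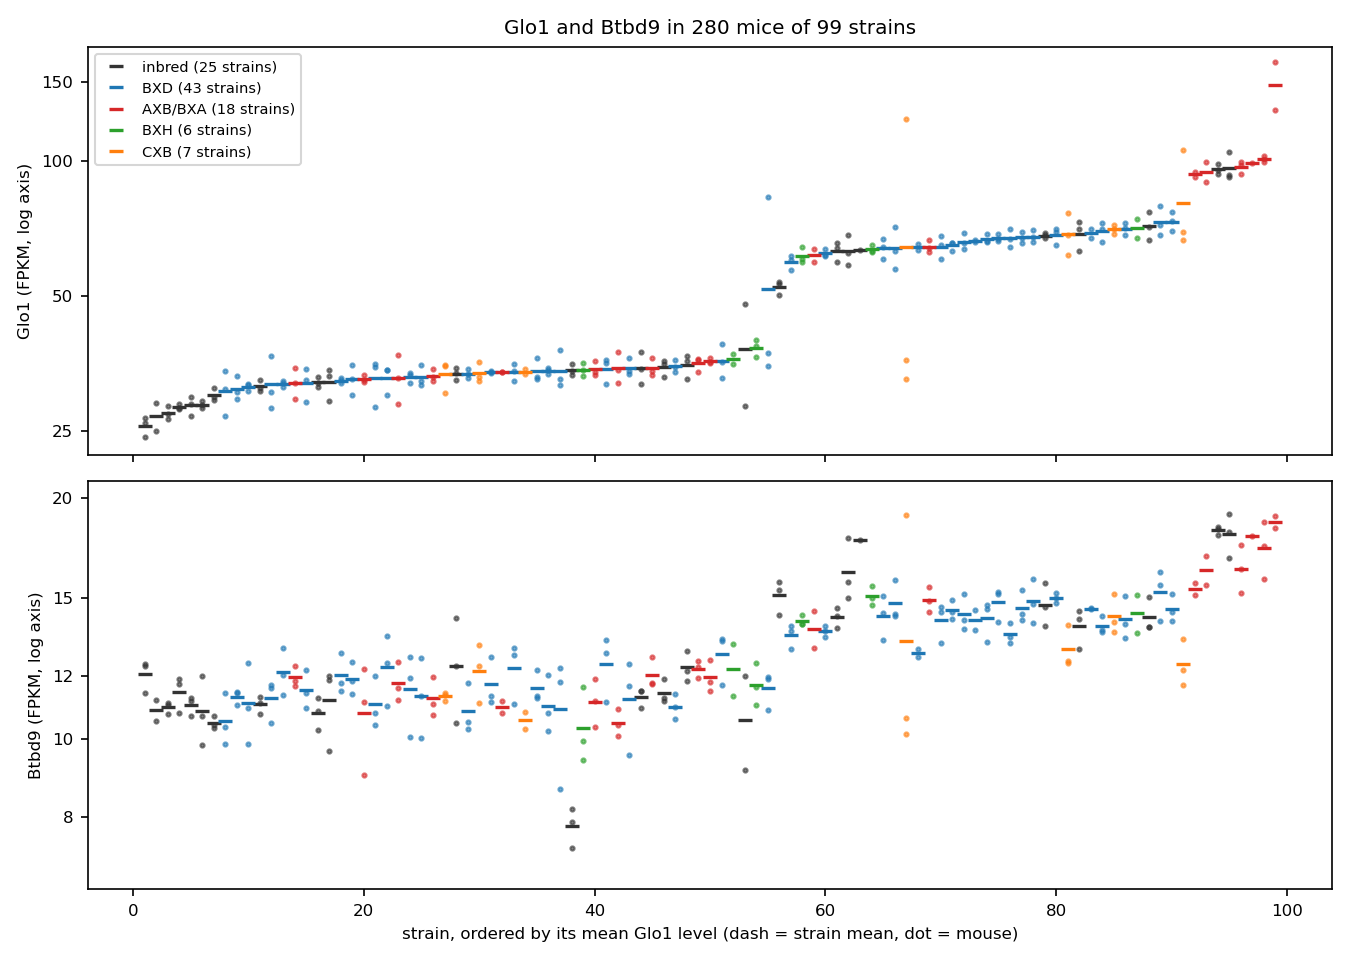
Level of Glo1 (top) and Btbd9 (bottom) in FPKM on a log axis, for 280 mice (dots) and 99 strain means (dashes, coloured by strain set), with the strains ordered from left to right by mean Glo1. Glo1 means rise slowly to 38.3 FPKM and step to 51.7 FPKM and above, while Btbd9 means run from 7.79 to 18.6 FPKM in the same order of strains with no step as wide.

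The strain means of Glo1 fell into a lower and an upper range with an empty stretch between them. Ordered by mean, the lower range ended at BXH-4/TyJ with 38.3 FPKM. The next strains were BXD-12/TyJ with 51.7 FPKM and C3H/HeJ with 52.4 FPKM, then BXD86 with 59.5 FPKM. BXD-12/TyJ sat there through a single library, since its mice had 34.8, 82.99 and 37.3 FPKM and the middle value is that of OB-547. Without the 4 mice, 56 strains lay at or below 38.3 FPKM and 43 at or above 52.4 FPKM, the highest mouse below the gap had 39.9 FPKM and the lowest above it 50.2 FPKM. No mouse of one range then reached the other. With all mice the ranges overlapped. The highest mouse below the gap, OB-585 of PL/J, had 47.8 FPKM, and the lowest above it, labelled CXB-7/ByJ, had 32.6 FPKM. Among the gaps that leave at least 5 strains on each side, the widest of Glo1 was 1.24-fold on the FPKM + 1 scale with all mice, and 2.09% of genes had a wider one. Without the 4 mice it was 1.36-fold, and 1.56% of genes had a wider one. Other wide steps in the upper range went from 52.4 FPKM in C3H/HeJ to 59.5 FPKM in BXD86, from 73.3 to 80.7 FPKM, from there to 93.4 FPKM, and from 101.2 FPKM in AXB-15/PgnJ to 148.1 FPKM in BXA-12/PgnJ. With all mice, 94 of the 98 pairs of neighbouring strains in the order had overlapping ranges of mice.

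The parental strains of the recombinant sets had distinct Glo1 levels. The C57BL/6J mice had 31.8, 37.5 and 34.3 FPKM, a mean of 34.5 ± 2.83 FPKM (SD, n = 3). The DBA/2J mice had 62.9, 70.5 and 73.3 FPKM. The A/J mice had 93.8, 98.6 and 95.4 FPKM. All DBA/2J and A/J mice were above all C57BL/6J mice, and A/J was above DBA/2J without overlap. The C3H/HeJ mice had 53.1, 50.2 and 53.8 FPKM, between C57BL/6J and DBA/2J. The BALB/cJ mice had 33.0, 31.4 and 32.0 FPKM, within or near the C57BL/6J range.

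Relative to C57BL/6J, mean Glo1 was 2.00-fold in DBA/2J (SE 0.13), 2.78-fold in A/J (SE 0.14), 1.52-fold in C3H/HeJ (SE 0.079) and 0.93-fold in BALB/cJ (SE 0.046). On the log2 scale the differences were 0.98 in DBA/2J, 1.45 in A/J, 0.59 in C3H/HeJ and -0.10 in BALB/cJ, each with an SE of 0.13 from the pooled fit. Glo1 was called in DBA/2J with an adjusted p of 8.26e-10, in A/J with 5.41e-19 and in C3H/HeJ with 0.000672, and was not called in BALB/cJ with 0.795. The share of all genes called was 6.85% in DBA/2J, 7.98% in A/J, 7.56% in C3H/HeJ and 6.75% in BALB/cJ. Without the first mouse of every strain, the difference in C3H/HeJ was 0.52 and was not called, with an adjusted p of 0.127.

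The higher parents also differed among themselves. A/J exceeded DBA/2J by 0.47 on the log2 scale with an adjusted p of 0.0122, in a comparison where 7.17% of genes were called. A/J exceeded C3H/HeJ by 0.86 with an adjusted p of 1.77e-07, where 3.67% of genes were called. DBA/2J exceeded C3H/HeJ by 0.39 with an adjusted p of 0.0798, which missed the threshold, where 4.56% of genes were called. Without the 4 mice the pooled SE fell from 0.13 to 0.075 and the last comparison was called, with an adjusted p of 4.18e-05.

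Of the 24 other inbred strains, 9 had higher Glo1 than C57BL/6J: A/J, AKR/J, C3H/HeJ, C57BLKS/J, CBA/J, CE/J, DBA/2J, I/LnJ and SEA/GnJ. Over all genes and these 24 strains, 6.07% of the pairs of gene and strain were called. CE/J, with 93.2, 104.6 and 92.4 FPKM, lay with A/J above all mice of the other inbred strains. C57BLKS/J, a strain of mostly C57BL/6J descent, had 68.2, 67.2 and 68.9 FPKM, while C57L/J had a mean of 30.1 FPKM. The single I/LnJ mouse had 63.2 FPKM, and its test borrows the spread of the other strains. In the other direction, Glo1 was called lower in KK/HlJ alone, whose mice had 26.7, 26.0 and 24.2 FPKM, with a log2 difference of -0.41 and an adjusted p of 0.0375. Without the 4 mice, 6 strains were called lower (KK/HlJ, LG/J, MA/MyJ, NZW/LacJ, SJL/J and SWR/J), with log2 differences of -0.41 to -0.26, and 7.43% of pairs were called. When each replicate in turn was left out of every strain, 0 strains were called lower.

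Btbd9 was more modest in both level and range. Its mean over mice was 12.8 FPKM against 49.9 FPKM for Glo1. Strain means ran from 7.79 FPKM in RIIIS/J to 18.6 FPKM in BXA-12/PgnJ, which was also the strain with the highest Glo1. The strain share was 77.7%, exceeded by 2.99% of genes, with an adjusted p of 1.92e-40 among the 99 strains. No gap with at least 5 strains on each side exceeded 1.06-fold on the FPKM + 1 scale, and 12.8% of genes had a wider gap, so Btbd9 alone did not separate into ranges.

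The C57BL/6J mice had 10.9, 11.5 and 11.5 FPKM of Btbd9. The DBA/2J mice had 12.9, 14.1 and 14.5 FPKM and the A/J mice 18.0, 18.4 and 18.3 FPKM. The C3H/HeJ mice had 15.3, 14.3 and 15.7 FPKM and the BALB/cJ mice 10.9, 11.2 and 10.3 FPKM. All DBA/2J, A/J and C3H/HeJ mice were above all C57BL/6J mice, and BALB/cJ overlapped with C57BL/6J. The log2 differences from C57BL/6J were 0.64 in A/J (adjusted p 3.45e-10), 0.39 in C3H/HeJ (0.000435), 0.27 in DBA/2J (0.0332) and -0.06 in BALB/cJ (0.804), each with an SE of 0.086. The DBA/2J call was lost whichever replicate was left out of every strain, with adjusted p-values of 0.129 to 0.231, and when every mouse was scaled to the same gene FPKM sum, with 0.125. The order of the parents was not that of Glo1, since C3H/HeJ had more Btbd9 than DBA/2J but less Glo1. For Btbd9 the difference between DBA/2J and C3H/HeJ, -0.12, was not called (adjusted p 0.593). A/J exceeded DBA/2J by 0.37 (adjusted p 0.00097), and exceeded C3H/HeJ by 0.26 (adjusted p 0.0748), which missed the threshold with all mice and passed it without the 4 mice (0.0213).

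The 9 inbred strains with higher Glo1 were also the 9 with higher Btbd9 than C57BL/6J. The 2 genes were tested against the same C57BL/6J mice. The number of strains with higher Btbd9 was 5 when the first or the second mouse of every strain was left out, and 5 when mice were scaled to the same sum. RIIIS/J was the exception in the other direction: its mice had 7.88, 8.18 and 7.31 FPKM of Btbd9, below every C57BL/6J mouse, with a log2 difference of -0.49 and an adjusted p of 3.84e-06. Its Glo1 was at 33.3, 34.0 and 35.2 FPKM, within the C57BL/6J range. KK/HlJ had the reverse pattern, with the lowest Glo1 and a Btbd9 mean of 12.05 FPKM that was not called different from C57BL/6J (adjusted p 0.714).

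The 6 transcripts showed which forms carried the differences. At the transcript level, 45.9% of all transcripts were called among the 99 strains, and 5 of the 6 were: the 3 of Glo1, the main Btbd9 form and the short Btbd9 form. TCONS_00152346 was not called (adjusted p 0.199). The main Glo1 form TCONS_00152351 held most of the signal, with a mean of 41.9 FPKM over mice and a strain share of 92.0%. The same 9 inbred strains that had higher Glo1 had higher TCONS_00152351.

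The short form of Btbd9 was low but followed Glo1. Its mean over mice was 1.22 FPKM, and its strain share of 71.4% exceeded the 59.5% of the main form TCONS_00152347, against a median of 11.3% over all transcripts. The C57BL/6J mice had 1.03, 0.353 and 0.1004 FPKM of it. The DBA/2J mice had 2.15, 2.301 and 2.28 FPKM, and the A/J mice 3.14, 2.18 and 2.59 FPKM. Each of these 6 mice was above each C57BL/6J mouse. The C3H/HeJ mice, with 1.13, 1.19 and 1.31 FPKM, were also above, by less. The BALB/cJ mice had 0.661, 0.400 and 0 FPKM.

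The short form was called in DBA/2J with a log2 difference of 1.17 (adjusted p 0.0126) and in A/J with 1.32 (0.00242), where 1.93% and 1.83% of all transcripts were called. It was not called in C3H/HeJ (0.61, adjusted p 0.425) or BALB/cJ (-0.13, adjusted p 0.939), where 1.79% and 1.64% were. Both calls were lost with a pseudocount of 0.1, with adjusted p-values of 0.300 in DBA/2J and 0.219 in A/J, and both were lost without replicate 2 and without replicate 3 of every strain. The main form went another way. TCONS_00152347 was higher in A/J by 0.57 (adjusted p 0.000454) and in C3H/HeJ by 0.43 (0.025), but in DBA/2J its difference was 0.04 (0.950). In DBA/2J the short form made up 16.2% of Btbd9 transcript FPKM, in A/J 14.6% and in C57BL/6J 4.57% with single mice between 0.874% and 9.43%.

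Shared sequence limits what can be read from the short form. GENCODE M21, a later annotation than that used by the study, holds a noncoding gene, AC174471.1, on the same strand at chr17:30459502-30923831. Of its 7 exons 5 are identical to the Btbd9 exons in the short form, and its span reaches 311.1 kb beyond the Glo1 start. The same annotation holds an antisense gene, AC165962.1, over the long first exon of the short form. Neither is named in the deposited table, and the libraries carry no strand, so reads of these genes and of Btbd9 cannot be told apart. Glo1 has a near copy, the pseudogene Gm13443, that is likewise not named in the table. On the strand opposite to Glo1, AC165962.3 at chr17:30591508-30591925 lies whole within the long 3′ end, and AC165962.4 shares 131 bases with Glo1 exons. Both are not named in the table either, so their reads and those of Glo1 cannot be told apart.

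Within each recombinant set, both genes differed among strains. For Glo1 the adjusted p within the set was 3.32e-57 in BXD, 1.35e-58 in AXB/BXA, 3.16e-14 in BXH and 1.01e-23 in CXB, and 7.85e-57 among the inbred strains. For Btbd9 it was 2.15e-18, 5.60e-24, 1.15e-06, 0.0133 and 6.83e-35 in the same order. The shares of all genes called were 64% in BXD, 22.1% in AXB/BXA, 18.4% in BXH, 16.4% in CXB and 47.4% among inbred strains. Without OB-678 the strain share of Glo1 within CXB was 91.8% instead of 53.3%, and that of Btbd9 76.4% instead of 2.33%. The CXB call of Btbd9 was lost without the first mouse of every strain, with an adjusted p of 0.0915.

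Segregation was described by counting strains above the midpoint of the parental means, taken on the log2 scale. In BXD, 20 of 43 strains were above the midpoint for Glo1, 46.5% with an exact 95% binomial interval of 31.2 to 62.3%. The strains above had means of 59.5 to 73.3 FPKM, around the DBA/2J mean of 68.9 FPKM. The strains below had 30.6 to 35.8 FPKM, around the C57BL/6J mean, apart from BXD-12/TyJ at 51.7 FPKM, where OB-547 decides the value. No other BXD strain lay between 35.8 and 59.5 FPKM. Strains whose name carries the suffix TyJ were above in 13 of 18, and the other BXD strains in 7 of 25; the difference was not tested.

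In AXB/BXA, 8 of 18 strains were above the midpoint for Glo1, 44.4% with an interval of 21.5 to 69.2%. Of these, 5 strains had means of 93.4 to 101.2 FPKM, near A/J. AXB-6/PgnJ with mice at 59.5 and 63.7 FPKM and BXA-4/PgnJ with mice at 63.8, 66.7 and 62.8 FPKM lay far below every A/J mouse and far above every C57BL/6J mouse. BXA-12/PgnJ lay beyond A/J, with mice at 129.9 and 166.4 FPKM. Strains between and beyond the parents are thus part of this set, and with the midpoint on the FPKM scale AXB-6/PgnJ and BXA-4/PgnJ fell below it, which left 6 of 18 above. The AXB direction of the cross had 6 of 10 strains above and the BXA direction 2 of 8.

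In BXH, 3 of 6 strains were above the midpoint: BXHB2, BXH-6/TyJ and BXHA1, with mean Glo1 of 61.4, 63.6 and 70.8 FPKM. All 8 of their mice, from 59.5 to 74.1 FPKM, were above the 3 C3H/HeJ mice, whose highest value was 53.8 FPKM. The difference from C3H/HeJ was not tested. The 3 strains below had means of 34.2, 36.2 and 38.3 FPKM.

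CXB could not be read by the midpoint, because BALB/cJ and C57BL/6J both had low Glo1 and were not called different, and all 7 strains lay above their midpoint of 33.3 FPKM. BALB/cJ and C57BL/6J are moreover not the substrains from which the set was bred, which are not among the 99 strains. The 7 strains still differed. CXB-12/HiAJ mice had 61.8, 76.5 and 68.2 FPKM, CXBH mice 71.9, 70.6 and 68.8 FPKM and CXB-3/ByJ mice 69.5, 66.6 and 105.9 FPKM. CXB-6/ByJ, CXB-11/HiAJ and CXB-13/HiAJ had means of 33.9, 33.6 and 33.4 FPKM, with no mouse above 35.7 FPKM. The mice labelled CXB-7/ByJ had 35.9, 32.6 and, in OB-678, 124.2 FPKM, so the strain mean of 64.2 FPKM rests on that library. High Glo1 was thus seen in 3 CXB strains although neither strain used as a stand-in for the parents had it. The mouse of CXB-3/ByJ at 105.9 FPKM had the second highest gene FPKM sum of all, 463433.

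**Figure D2:**
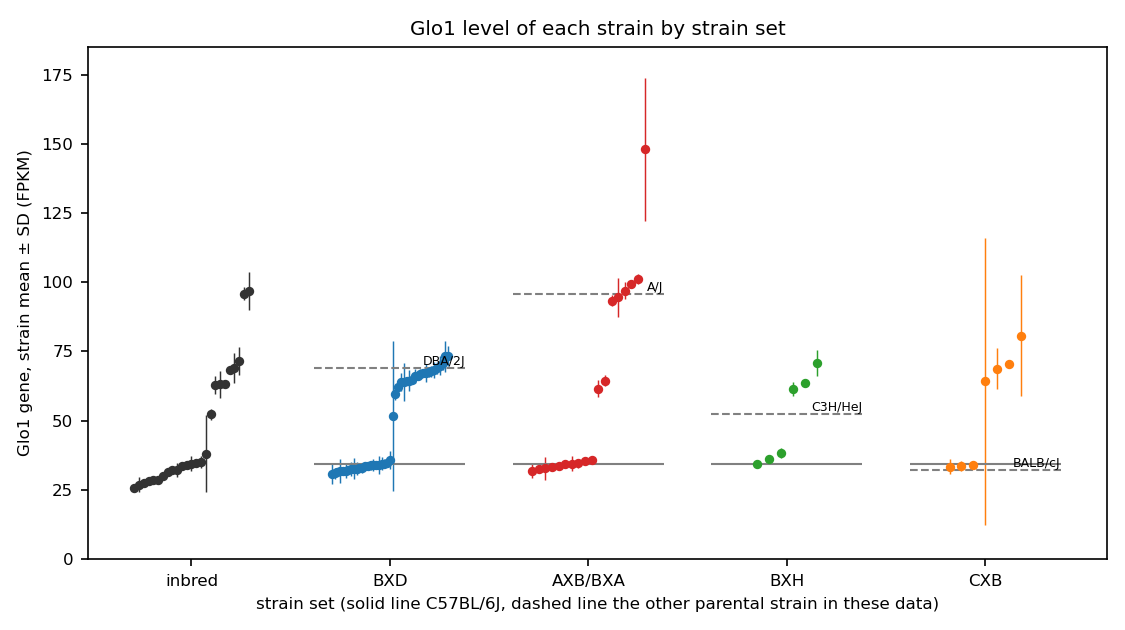
Mean Glo1 level of each strain in FPKM, with SD over its mice, by strain set, with a solid line at C57BL/6J (34.5 FPKM) and a dashed line at the other parental strain of each set in these data. BXD strains gather at both lines, AXB/BXA strains also lie between and above the lines, and 3 BXH strains lie above C3H/HeJ at 52.4 FPKM.

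Btbd9 and its short form segregated with Glo1. By their own midpoints, 21 of 43 BXD, 7 of 18 AXB/BXA and 3 of 6 BXH strains were above for Btbd9. In BXD, 20 strains were above for both genes, 22 for neither and 1, BXD85, for Btbd9 alone. BXD85 had a Btbd9 mean of 12.8 FPKM, just over the midpoint of 12.5 FPKM, and the highest mean below it was 12.4 FPKM. For Btbd9, 9 of the 43 BXD strains had mice on both sides of the midpoint, against 1 for Glo1. The same held for 1 AXB/BXA and 1 BXH strain for Btbd9, so its counts are less clear-cut than those of Glo1. In AXB/BXA, 7 were above for both, 10 for neither and AXB-6/PgnJ for Glo1 alone. In BXH, 3 were above for both and 3 for neither. For the short form the pattern was the same but for single strains: in BXD 20 were above for both, 22 for neither and BXD70 for the short form alone, and in AXB/BXA 8 were above for both and 10 for neither. Neighbouring genes are mostly inherited from the same parent, so these counts are no separate evidence for the second gene.

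**Figure D3:**
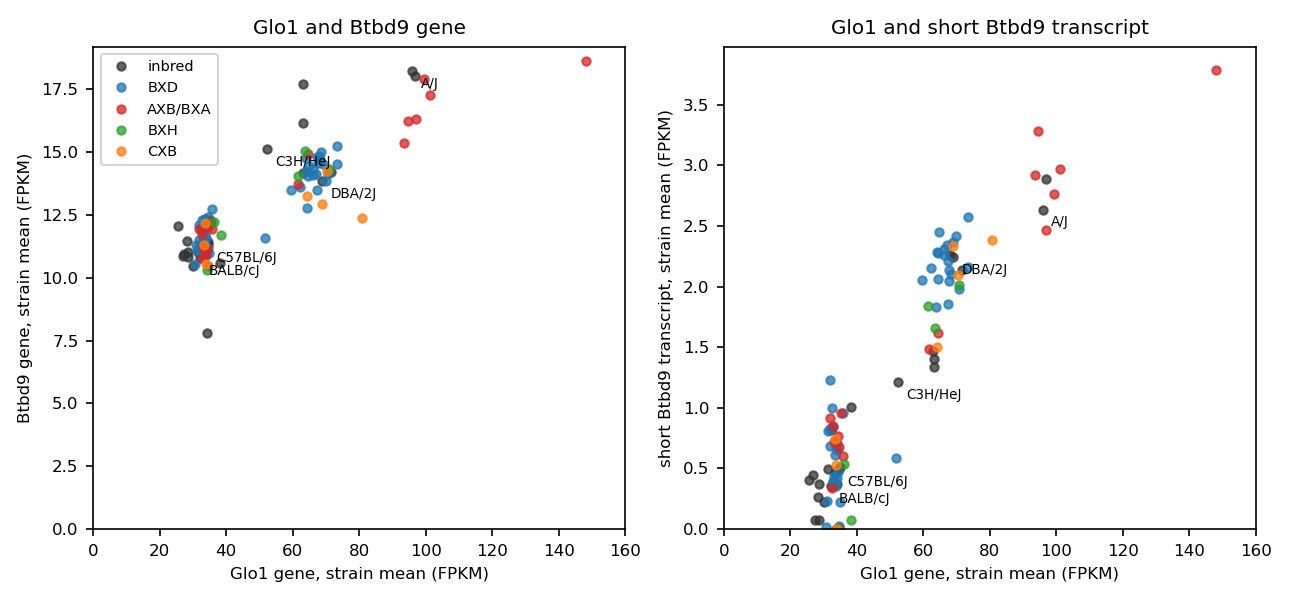
Strain means of Glo1 (horizontal axis, FPKM) against the Btbd9 gene (left) and the short Btbd9 form (right, both FPKM), 1 point per strain, coloured by set. Btbd9 rises with Glo1 over the upper range of Glo1, with a Pearson r of 0.72 and a Spearman correlation of 0.48 there. Over the lower range it is nearly flat, with a Pearson r of 0.10 and a Spearman correlation of 0.20.

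Over the 99 strain means of log2(FPKM + 1), the Pearson correlation of Glo1 and Btbd9 was 0.89 and the Spearman correlation 0.82. Strains share ancestry, so the points are not independent. The correlation was 0.92 in BXD, 0.97 in AXB/BXA, 0.93 in BXH, 0.75 in CXB and 0.85 among inbred strains. The Pearson correlation was 0.10 over the 54 strains below the gap in Glo1 and 0.72 over the 45 above it, and without the 4 mice 0.20 over 56 and 0.67 over 43. The Spearman correlation above the gap was lower, 0.48 with all mice and 0.42 without the 4 mice, and below it 0.20 and 0.27. Single mice around their strain mean had a correlation of 0.34, which fell to 0.02 without the 4 mice. For the short form the correlation with Glo1 was 0.91 over all strains, 0.13 below the gap and 0.81 above it.

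No other gene reached a correlation with Glo1 as high as that of Btbd9. By absolute Pearson correlation over the 99 strain means, the 10 genes nearest to Glo1 included Hmga1 on chromosome 17 with -0.56. Similar sequences exist elsewhere in the genome, so how the reads of Hmga1 were divided is uncertain. Hmga1 lies 3.03 Mb from Glo1 and Ppil1, with -0.54, 1.33 Mb from it. Also among the 10 nearest to Glo1 were Gm10260, H2-Q2, Cramp1l and the unplaced genes XLOC_015194, XLOC_009191 and XLOC_016052, at absolute values of 0.51 to 0.55. Below the gap Hmga1 had a correlation of 0.43 with Glo1, the opposite of its sign over all strains. Among the 10 nearest to Btbd9, Rab11b with -0.48 took the place of Cramp1l.

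The genes around the locus were compared to see how far the difference reached. Among genes that passed the expression filter and have a position in the assembly, 33 others lay within 2 Mb of Glo1. They are not all genes of that window, and the 1555 gene rows without a position could not be counted. In DBA/2J 1 of 33 was called and in A/J 2 of 33, in C3H/HeJ 4 of 33 and in BALB/cJ 1 of 33. These are 3.03, 6.06, 12.1 and 3.03%, of which the share in C3H/HeJ alone exceeded that of all genes. The median log2 difference of the 33 genes was -0.03, 0.04, 0.01 and -0.01, and that of all genes lay between -0.02 and 0.01. Of these 33 genes, the nearest on the side of Btbd9 were Zfand3 and Mdga1. On the other side they were Abcg1, a sterol transporter, and Rsph1, a ciliary protein gene. These nearest genes were called in none of the 4 parental strains. Zfand3, at 21.6 FPKM, had log2 differences of -0.04 in DBA/2J and -0.03 in A/J with an SE of 0.068, and Abcg1, at 18.1 FPKM, -0.04 and 0.08 with an SE of 0.072. Dnah8 and Glp1r, which also lie at the locus, are not among the gene names in the table.

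**Figure D4:**
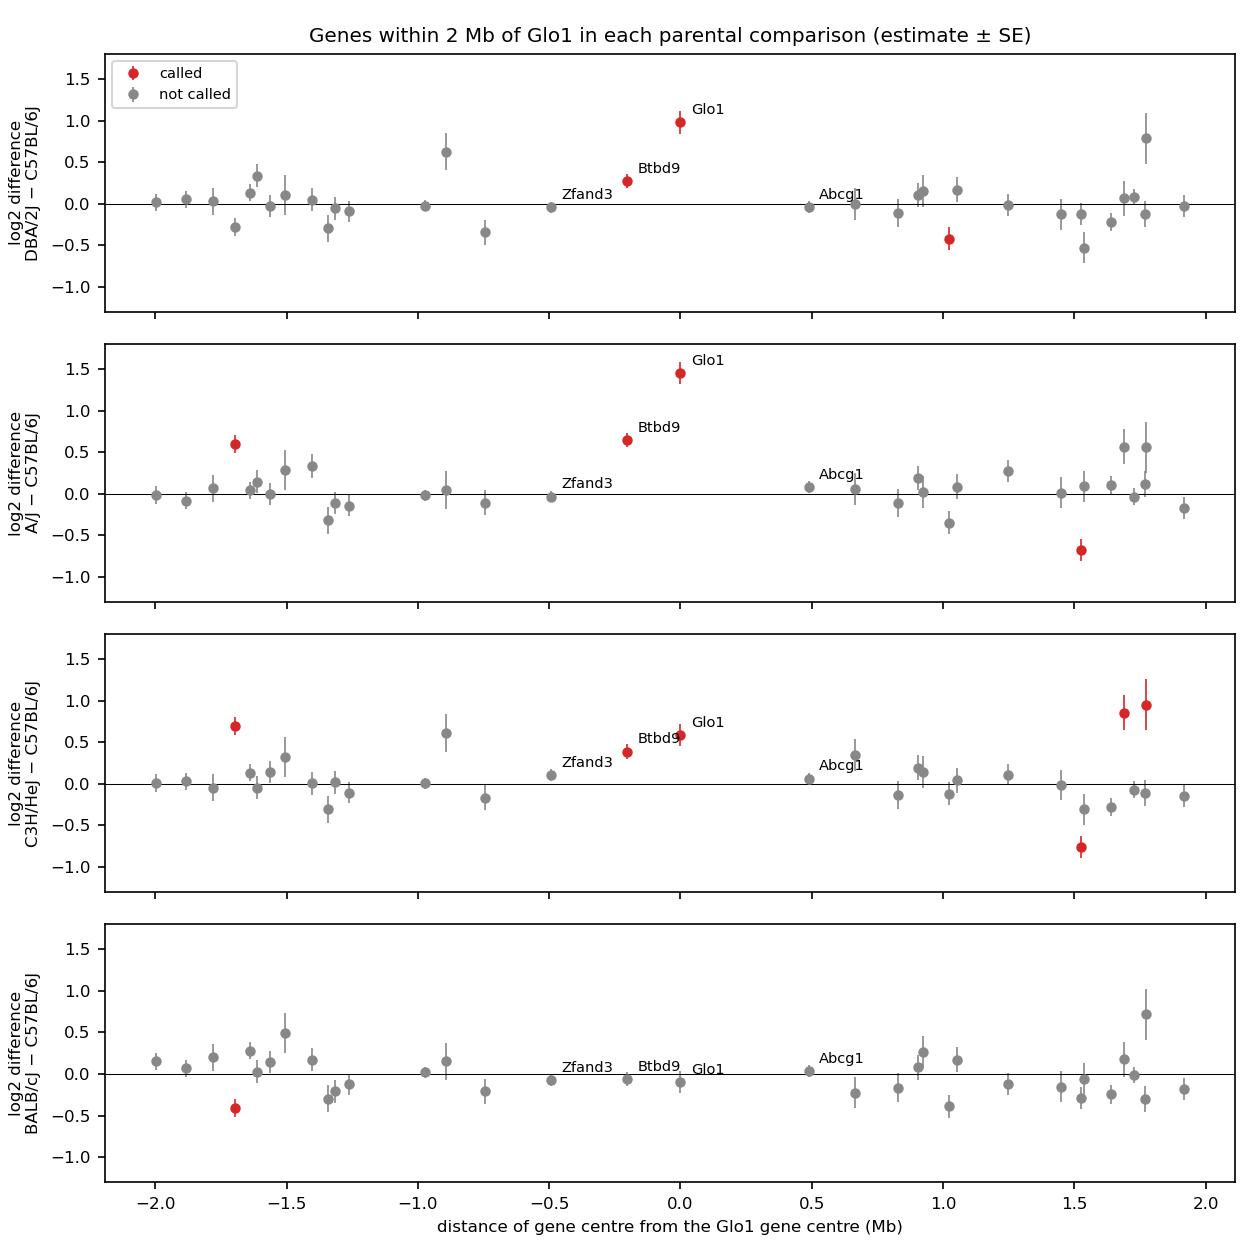
Log2 difference from C57BL/6J, with SE, of Glo1, Btbd9 and 33 other genes in each parental strain, against the distance of the gene's centre from that of Glo1 in Mb. Red points were called. Glo1 and Btbd9 stand at 0.98 and 0.27 in DBA/2J and at 1.45 and 0.64 in A/J. Zfand3 and Abcg1, the nearest of the 33 genes on each side, lie within 0.11 of 0 in all panels.

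Of the 33 genes, those that were called lay 1.02 Mb or more from Glo1. Gene rows without a position could not enter this count. The identifier of XLOC_015194, which has no position, falls between those of Zfand3 (XLOC_015186) and Abcg1 (XLOC_015196). Whether it lies near Glo1 was not tested. 4930539E08Rik, 1.70 Mb from Glo1, was higher in A/J by 0.60 and in C3H/HeJ by 0.69, and lower in BALB/cJ by -0.41. Gm17276, 1.53 Mb away, had log2 differences of -0.68 in A/J and -0.76 in C3H/HeJ. Cbs, which makes cystathionine from homocysteine and serine, lies 1.02 Mb away and had -0.42 in DBA/2J (adjusted p 0.0409), a call that was lost whichever replicate was left out of every strain. Gm26549 and Gm26858, 1.69 and 1.77 Mb away and both below 1 FPKM on average, were higher in C3H/HeJ by 0.86 and 0.95.

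In DBA/2J, A/J and C3H/HeJ the enzymes around glyoxalase 1 were called about as often as all genes were. The list held 19 genes, of which 16 had a row of that name in the table (Akr1a4, Akr1b8 and Ager had none), and 15 remained beside Glo1. In each of DBA/2J, A/J and C3H/HeJ, 1 of 15 was called, and in BALB/cJ 2 of 15, that is 6.67 and 13.3%, where the shares of all genes were 6.85, 7.98, 7.56 and 6.75% in the order DBA/2J, A/J, C3H/HeJ and BALB/cJ. Among the 99 strains 14 of 15 were called, all but Haghl, where 74.9% of all genes were. The median log2 difference of the 15 genes was 0.05, -0.05, 0.02 and -0.01. The gene called in all 4 was Gsr, glutathione reductase, higher by 0.76 in DBA/2J, 0.60 in A/J, 0.59 in C3H/HeJ and 0.72 in BALB/cJ, all against the same C57BL/6J mice. Without replicate 3 of every strain it was not called in A/J and C3H/HeJ. The other was Ldhd, which oxidises D-lactate, higher in BALB/cJ by 0.38. Hagh, the second enzyme of the pathway, had 43.5 FPKM and log2 differences between -0.14 and 0.06, with a correlation of 0.05 with Glo1 over strain means. Across the 15 genes that correlation lay between -0.16 and 0.16.

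The Cul3 list, for the ligase and its adaptors with which Btbd9 is studied, held 14 genes, all with a row. With all mice Klhl9, an adaptor of Cul3, was the gene called: by -0.49 in DBA/2J, -0.61 in C3H/HeJ and -0.56 in BALB/cJ, and none was called in A/J. With all mice, the share of 7.14% is near the 6.85, 7.56 and 6.75% of all genes. Without the 4 mice 3 of the 14 genes were called in DBA/2J, 1 in A/J and 3 in C3H/HeJ. Over all genes and the 24 inbred strains, 7.43% of pairs were called in that setting, a smaller share than 3 of 14. It is pooled over the 24 strains, and the share of all genes in each parental strain is not given for that setting. Among the 99 strains 10 of 14 were called, or 71.4%, where 74.9% of all genes were. Medians of the list were 0.02, 0.05, 0.12 and 0.04 in DBA/2J, A/J, C3H/HeJ and BALB/cJ. Cul3 itself was at 48.3 FPKM and had a correlation of 0.09 with Btbd9, within a range of -0.22 to 0.23 over the list. Some rows of both lists carry the name of more than 1 gene.

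One strain stood apart in the make-up of Glo1 rather than its level alone. The 2 forms with the long 3′ end made up 16.2% of Glo1 transcript FPKM in the median strain. In KK/HlJ they made up 3.79, 4.73 and 2.86% in the 3 mice, a mean of 3.79%, while the next lowest strain, BXD-24/TyJ, had 12.4%. No KK/HlJ mouse reached the share of a mouse of BXD-24/TyJ, whose lowest was 11.9%. The transcript missing in KK/HlJ was TCONS_00152349, at or below 5.33e-05 FPKM in all 3 mice, against 3.01, 6.44 and 5.13 FPKM in C57BL/6J. Its log2 difference was -2.50 with an adjusted p of 4.10e-06, in a comparison where 1.8% of transcripts were called. TCONS_00152350, the other long form, was at 1.01, 1.23 and 0.691 FPKM in KK/HlJ and was not called (adjusted p 0.985). The strain was singled out after its values were seen, the division of reads between 2 overlapping long forms is an estimate, and the long end includes AC165962.3 on the opposite strand.

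**Figure D5:**
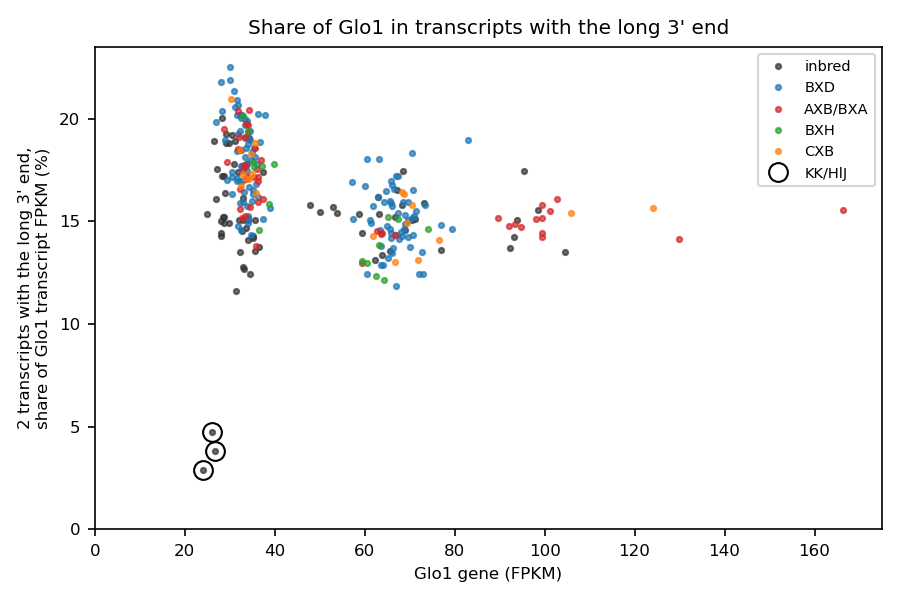
Share of Glo1 transcript FPKM in the 2 forms with the long 3′ end, in percent, against the Glo1 gene level in FPKM, 1 point per mouse coloured by strain set. The 3 KK/HlJ mice (circles) lie between 2.86 and 4.73%, below all other strains, whose means run from 12.4 to 19.99%.

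The dissected tissue was checked against marker genes. All markers of neurons, astrocytes, oligodendrocytes and microglia were measured, and 7 of 8 hypothalamic markers, the exception being Sim1. Summed markers ran from 728 to 1421.5 FPKM for neurons, 179 to 345 for astrocytes, 1191 to 3024 for oligodendrocytes, 95.01 to 471 for microglia and 829 to 9180 for hypothalamus. Markers of tissue next to the hypothalamus varied far more between mice, from 2.88 to 20033 FPKM for the 4 of anterior pituitary and from 7.07 to 2090 FPKM for the 4 of choroid plexus. The correlation of each summed list with Glo1 over strain means lay between -0.15 and 0.18, and with Btbd9 between -0.19 and 0.26. None of the 4 anterior pituitary markers was called against C57BL/6J in A/J or C3H/HeJ, whose Glo1 and Btbd9 were higher. The differences of Gh and Prl were the largest there. Gh, growth hormone, had log2 differences from C57BL/6J of 5.24 in A/J (adjusted p 0.184), 5.59 in C3H/HeJ (0.149), -0.42 in DBA/2J and 0.51 in BALB/cJ. Prl, prolactin, had 5.003 in A/J (0.144), 4.15 in C3H/HeJ (0.265), -0.10 in DBA/2J and 0.85 in BALB/cJ. Cga had 1.64 in A/J, 1.86 in C3H/HeJ, 1.28 in DBA/2J and -0.04 in BALB/cJ. Pomc, which is also on the hypothalamic list, had 1.47 in A/J, -0.40 in C3H/HeJ, -0.52 in DBA/2J and -0.45 in BALB/cJ. The part of these markers in the levels of both genes was not tested further.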

How the data were processed

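The study measured RNA-seq in 282 mice. Libraries were unstranded. The authors used STAR 2.3.1 for alignment (mm10), Cufflinks 2.2.0 for assembly and Cuffnorm 2.2.1 for quantification. The deposited FPKM are scaled between mice by the authors, and every feature kept was above 0 in no fewer than 100 mice and above 1 in no fewer than 50, as checked on the values. All value columns were used. Of 14079 gene rows, 1555 have no transcript model in the assembly and are given by identifier, without a position.

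The strain came from the labels. Mouse OB-627, whose title and strain label disagree, was left out. A repeated CXB-6/ByJ library was averaged, so replicates of 280 libraries in 99 strains entered 1 fit of log2(FPKM + 1) without covariates, using limma 3.58.1 (R 4.3.3), with Benjamini-Hochberg adjustment over all genes or all transcripts at 0.05, and contrasts between strains or F tests within sets. The fit was tested on simulated data. Strain means, gaps, midpoints, correlations and exact binomial intervals were computed in Python 3.11.15 with pandas 2.3.3, numpy 2.4.6 and scipy 1.17.1, sequence matches with BLAST 2.17.0 and figures with matplotlib 3.10.9. Strains were split by Glo1 level only to count them and to give correlations within each range, with no test between them. Intervals of shares of strains cover counting error only and treat strains as independent.

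The members and lists were chosen with earlier results of these data known. Named genes are the members with their transcripts, the 2 neighbours on each side, up to 10 called genes within 2 Mb, the 10 genes nearest in correlation to each member, called genes of the glyoxalase and Cul3 lists, and Glp1r and Dnah8. KK/HlJ and other single strains, Hagh and Cul3 were named after their values were seen. A gene that the rule names is not reported here. Alternatives were pseudocounts of 0.1 and 0.01, quantile normalization, testing only features whose mean FPKM reached 1, leaving out each replicate, removal or placement of single mice, the Kruskal-Wallis test, a midpoint on the FPKM scale, windows of 1 and 5 Mb, and correlations of single mice. Added after seeing the data were removal of 4 mice, scaling to a common sum, the gap as divider and counting the repeated library as 2 mice.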

Additional observations from a re-analysis of the deposited data

Results flagged for a closer look

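Mouse OB-627 entered no comparison because its title names AXB-8/PgnJ and its strain label AXB-6/PgnJ. It had 103.6 FPKM of Glo1 and 16.6 FPKM of Btbd9. The 2 mice of AXB-8/PgnJ had a mean of 93.4 FPKM of Glo1 and 15.4 FPKM of Btbd9, and the 2 mice of AXB-6/PgnJ 61.6 and 13.7 FPKM. Over the 500 genes of the label check, OB-627 had a correlation of 0.940 with AXB-8/PgnJ, the nearest strain. Placing it in either strain changed no call of Glo1 or Btbd9 among strains.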

How the results depend on the processing

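Of 1124 values of 79 results under the alternatives, 1037 kept their side of the threshold or, for counts and correlations, moved little. Another 26 were no longer called, 1 became called, 60 moved and 0 reversed. A change of sign counted as reversed only for a difference called in the original setting or under the alternative. Uncalled differences could change sign. That of TCONS_00152347 in DBA/2J went from 0.04 to as low as -0.09 when a replicate was left out. The cause was not tested for any of them. Glo1 and Btbd9 were called among the 99 strains under every alternative run. Leaving out 1 replicate of every strain gave log2 differences of 0.52 to 0.68 for Glo1 in C3H/HeJ (not called without replicate 1) and 0.25 to 0.29 for Btbd9 in DBA/2J (never called). It gave 0 to 0 inbred strains with lower Glo1 and 5 to 7 with higher Btbd9, a strain share of -36.4 to 84.98% for Btbd9 within CXB, a share of 23.2 to 35.9% for TCONS_00152350 (not called without replicate 1) and a correlation of 0.86 to 0.88 between both genes. It gave 0 to 0 called neighbours within 2 Mb in DBA/2J, 2 to 3 in C3H/HeJ and 0 to 1 in BALB/cJ, 0 to 1 glyoxalase genes in A/J, 0 to 1 in C3H/HeJ and 1 to 2 in BALB/cJ, and 1 to 2 Cul3 genes in DBA/2J. Over all genes it left 59.3 to 65.6% of the 964 calls in DBA/2J, 51.02 to 62.2% of the 1123 in A/J, 52.8 to 65.2% of the 1065 in C3H/HeJ and 52.1 to 73.9% of the 951 in BALB/cJ. Quantile normalization gave 2 strains with lower Glo1, a call of TCONS_00152346 with a share of 14.8%, 3 neighbours in DBA/2J, and 3, 3 and 2 Cul3 genes in DBA/2J, C3H/HeJ and BALB/cJ. Removing OB-547, or all 4 mice, gave 3 neighbours in DBA/2J, 2 glyoxalase genes in A/J, and 3, 1 and 3 Cul3 genes in DBA/2J, A/J and C3H/HeJ. The number of inbred strains with lower Glo1 was 3 without OB-678 and 6 without the 4 mice. Scaling to the same gene FPKM sum gave 0.28 for Btbd9 in DBA/2J, 5 strains with higher Btbd9, 2 neighbours in DBA/2J, and 3, 3 and 2 Cul3 genes in DBA/2J, C3H/HeJ and BALB/cJ. A window of 1 Mb held 0 called neighbours in A/J, C3H/HeJ and BALB/cJ, and a window of 5 Mb held 17, 17, 22 and 17 in DBA/2J, A/J, C3H/HeJ and BALB/cJ. The wider window holds more genes and its total is not given here, so these counts cannot be read as a rise in share. Counts of called neighbours and list genes in this section are not set beside the share of all genes under the same alternative. A mean FPKM of at least 1 left 2 called neighbours in C3H/HeJ, and TCONS_00152346 had no value under it. With the lower edge of the gap as divider, 4 CXB strains had high Glo1, 3 without OB-678. Deviations of single mice gave a correlation of 0.34. No paired analysis was possible because the labels give mice of different strains no shared replicate numbers. Depth cannot be read from FPKM, so whether it limits the low transcripts was not tested.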
